A study of Homo sapiens with 8 samples.

Results

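Transcripts of 10 genes that control the G1 phase of the cell cycle were measured in MDA-MB-231 cells and in ρ0 cells derived from them, with and without arginine starvation. The genes were a list fixed without a cutoff on their values, but set with earlier results of these data known. It held the D cyclins CCND1, CCND2 and CCND3 and the E cyclins CCNE1 and CCNE2. The kinases CDK4 and CDK6 and the CIP/KIP inhibitors CDKN1A, CDKN1B and CDKN1C made up the rest. All 10 were among the 23393 gene symbols of the read-count table, and all 10 were among the 15262 genes with enough counts to be tested. MDA-MB-231 is a triple-negative human breast cancer line with little ASS1, the enzyme that lets cells make arginine from citrulline, and ρ0 cells are cells that lack mitochondrial DNA.

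The series held 8 RNA-seq libraries in 4 groups of 2. Parental control cells grew in full medium, and parental starved cells had received arginine deiminase (ADI), an enzyme that degrades arginine, at 0.3 µg/mL for 48 h. The ρ0 control and ρ0 starved groups were clone 27 under the same conditions. The labels describe ADI added to full medium, whereas the methods of the study describe medium made without arginine. The study describes ρ0 lines as made with ethidium bromide, and by its methods this line was received from another laboratory and kept in medium with pyruvate, uridine and ethidium bromide. The ρ0 groups therefore stand for 1 clone, and mitochondrial DNA, clone and culture history cannot be told apart. The loss of mitochondrial DNA was not checked here. Nothing in the labels says that the 2 libraries of a group came from separate cultures, so p-values measure the spread between libraries, which may be technical.

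In G1, D cyclins bind CDK4 or CDK6, and these complexes begin to phosphorylate the retinoblastoma protein, RB. Phosphorylated RB releases E2F factors, which switch on genes for DNA replication together with the E cyclins, and E cyclins with CDK2 complete the phosphorylation. Inhibitors of the CIP/KIP class (p21, p27 and p57) hold the CDK2 complexes back, and p21 and p27 also assist the assembly of D cyclin complexes, whereas inhibitors of the INK4 class act on CDK4 and CDK6 alone. CCND2 and CCND3 carry out much the same reaction as CCND1 but are used to different extents from tissue to tissue. In breast cancer, CCND1 is often overexpressed, and CDK4 and CDK6 are drug targets.

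The libraries held between 25259503 and 31022155 counts. Levels are given as CPM, the read count relative to the library size, after scaling by TMM, a factor that sets aside the most extreme genes, and replicate 1 is named before replicate 2. The ρ0 control libraries stood apart from each other: their biological coefficient of variation was 25.1%, against 5.16% for parental control, 2.29% for parental starved and 1.84% for ρ0 starved. Of 16 E2F target genes of S phase entry, 15 were higher in ρ0 control replicate 2 than in replicate 1 (median log2 difference 0.75). Of 10 mitosis markers, 9 were lower there (median −0.48). For the 10 genes, the ρ0 response and the difference between the control groups are therefore given with and without each of its libraries, where the remaining library is assumed to vary like the other groups. With a ρ0 control library gone, the estimated spread was that of the closer pairs and p-values became far smaller. Each gene had 1 spread estimate shared by the 4 groups. The ρ0 control pair thus enters the SEs, intervals and p-values of comparisons without that group too. All 6 markers of mesenchymal breast cancer cells (VIM, CD44, AXL, ZEB1, MSN and CAV1) were above 10 CPM in each group. The summed level of 7 luminal markers was between 16.1 and 59.4 CPM, and single ones differed between parental and ρ0 control cells. CDH1 (at most 0.0599 CPM in parental, 15.8 and 14.1 in ρ0 libraries), EPCAM (means of 0.470 and 23.1 CPM) and GATA3 (4.51 and 16.5 CPM) were higher in ρ0 cells. ERBB3 (23.1 and 3.97 CPM) and FOXA1 (7.35 and 0.033 CPM) were lower. Their part in the differences between the lines was not tested. The summed level of 4 leukocyte markers was at most 3.43 CPM. That of 4 fibroblast markers was 6.59 CPM in the lower and 20.5 CPM in the higher ρ0 control library, and at most 4.27 CPM in the other groups. In such bulk samples, a change in how many cells are in a phase of the cycle and a change in RNA per cell cannot be told apart.

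Arginine starvation of parental cells moved this set of genes mostly upward. The p21 gene CDKN1A rose 4.01-fold, CCNE2 3.25-fold, CCND2 2.60-fold, CDK4 2.47-fold and CDK6 2.01-fold, and CDKN1C was the member that fell. A gene is said to have risen or fallen where the adjusted p of edgeR's quasi-likelihood test was under 0.05, and to be past the fold threshold where its log2 fold change was also above 1 or below −1. Of the 10 genes, 8 rose and 1 fell, while 30.4% of all tested genes rose and 35.5% fell. The 5 named first were past the fold threshold upward, where 12.7% of tested genes were, and 0 were past it downward, where 22.1% were. The median log2 fold change of the 10 genes was 0.87, against −0.07 over all tested genes. Scaling by upper quartile or total counts moved the latter to −0.19 and −0.23.

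In ρ0 cells the same treatment gave a mixed picture, led by a 20.6-fold rise of CCND2. Beside CCND2, CDKN1C rose past the fold threshold, CDK6, CDK4, CDKN1B and CDKN1A rose by less, and CCNE2 and CCND3 fell. That made 6 genes higher and 2 lower, against 19.2% and 22.1% of all tested genes. Past the fold threshold were 2 upward, where 4.22% of tested genes were, and CCNE2 alone downward, where 8.19% were. CCND2 alone was past it without ρ0 control replicate 2, and without any 1 of the other libraries the count was 2 or 3. The median log2 fold change was 0.51 for the 10 genes and −0.02 for all tested genes.

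The responses of the lines were then set against each other as a difference of differences, ρ0 minus parental, with no fold threshold. It was positive for CCND2 (2.98) and CDKN1C (1.73) and negative for CCNE2 (−3.02), CDKN1A (−1.53), CCND3 (−1.38), CCNE1 (−0.75) and CDK4 (−0.71). These were 2 higher and 5 lower, against 21.6% and 18.8% of tested genes. CDK6 (−0.29, adjusted p = 0.0864 by edgeR), CDKN1B (0.49, 0.0589) and CCND1 (−0.26, 0.527) did not pass. Without either ρ0 control library all 10 passed, and so did 10276 and 9269 genes of the whole table in place of 6167. Leaving out any of the other 6 libraries left 5 of the 10, without CCNE1 and CDK4. For 3 genes both responses passed with opposite directions: CCND3 and CCNE2 rose in parental and fell in ρ0 cells, and CDKN1C did the reverse. Over the whole table this held for 555 genes, 3.64% of those tested.

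**Figure D1:**
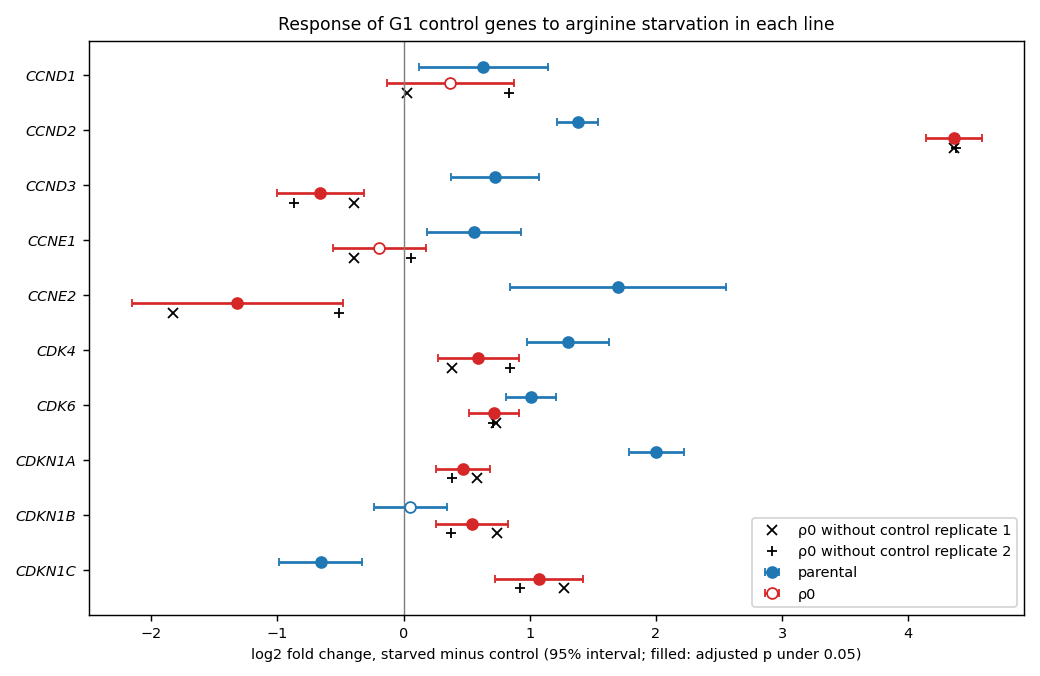
Log2 fold change, starved minus control, of each gene in parental (blue) and ρ0 (red) cells with its 95% interval from edgeR, filled where the adjusted p was under 0.05. Black marks give the ρ0 value without control replicate 1 (x) or 2 (+). CCND2 in ρ0 cells lies at 4.36 with both marks on it, whereas the marks of CCNE2 (−1.83 and −0.51) and CCND1 (0.03 and 0.83) lie apart.

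Between the lines, ρ0 control cells differed from parental control cells at each of the 10 genes. CCNE2, CCND1, CCNE1, CDKN1B, CCND3 and CDKN1A were higher in ρ0 cells and CCND2, CDKN1C, CDK6 and CDK4 lower, which is 6 and 4 genes against 30.5% and 31.8% of tested genes. Past the fold threshold were CCNE2 and CCND1 upward (13.6% of tested genes) and CCND2 and CDKN1C downward (17.3%). After starvation, CDKN1B and CCND1 were higher in ρ0 cells and 6 genes lower, against 32.9% and 33.5% of tested genes. Past the fold threshold were 0 genes upward (18.7%), and CCND2, CDK4 and CDKN1A downward (16.8%). With the libraries of the compared groups alone, CCND3, CCNE1, CDK4, CDKN1A and CDKN1B did not pass between the control groups (0.0592 to 0.113 by edgeR), and in ρ0 starvation CCNE2, CCND3, CDK4 and CDKN1B did not (0.0689 to 0.101). The contrasts share libraries: each control group enters both its line's response and the comparison of the control groups, so their values are not independent of each other.

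**Figure D2:**
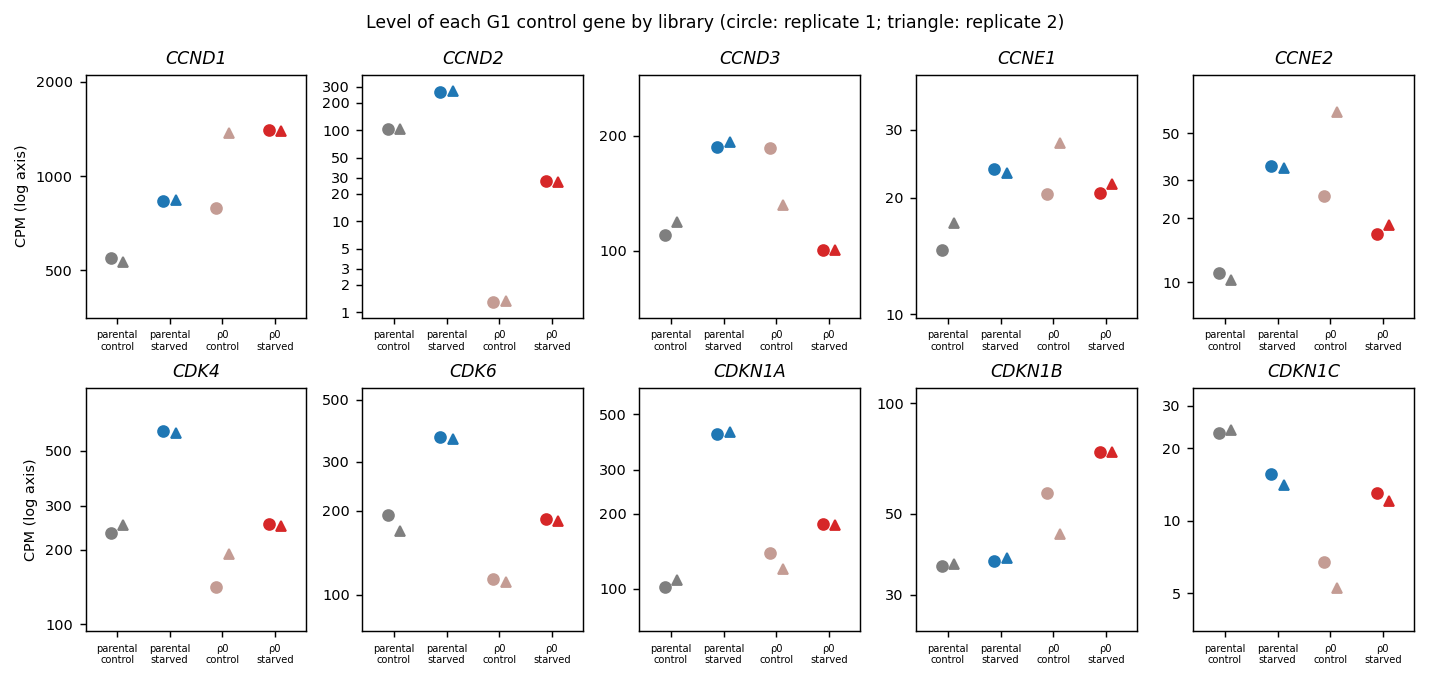
CPM of each gene in each library on a log axis that differs from panel to panel, with replicate 1 as a circle and replicate 2 as a triangle. The ρ0 control pair is wide for CCNE2 (25.4 and 62.8 CPM) and CCND1 (793 and 1369 CPM), and CCND2 in ρ0 control cells lies near 1.32 CPM in both.

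CCND2 encodes cyclin D2. It was counted 3426 and 2947 times in parental control, 6624 and 7642 times in parental starved, 38 and 41 times in ρ0 control and 812 and 651 times in ρ0 starved libraries, or 103 and 102, 262 and 271, 1.32 and 1.32, and 27.4 and 27.0 CPM. No groups overlapped, and the ρ0 line was the lower one under both conditions. The log2 fold change on starvation was 1.38 ± 0.07 (SE, adjusted p = 9.4e-06 by edgeR) in parental and 4.36 ± 0.09 (3.3e-06) in ρ0 cells. The difference of 2.98 had a 95% interval from 2.71 to 3.26. In control medium the ρ0 level was 77.5-fold lower (log2 −6.28 ± 0.10), and after starvation it was 9.80-fold lower (−3.29 ± 0.07). CCND2 was also the gene of the 10 whose 2 ρ0 control libraries lay closest, and leaving out either gave 4.36 and 4.38 for the ρ0 response and −6.28 and −6.22 between the control groups.

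CCND1, the gene of cyclin D1, measured 548 and 531 CPM in parental control, 835 and 837 in parental starved, 793 and 1369 in ρ0 control and 1407 and 1389 in ρ0 starved libraries. The parental groups were well separated, while ρ0 control replicate 2 lay close to the starved pair and replicate 1 below it. In parental cells the log2 fold change was 0.63 ± 0.22 (edgeR adjusted p = 0.0338), and 0.61 to 0.67 with any 1 library left out. It did not pass under upper quartile (0.0723) or total count scaling (0.0976), nor when any 1 of the 4 parental libraries was left out. Its SE rests on the spread shared by the 4 groups, of which the ρ0 control pair was the widest. In ρ0 cells the log2 fold change was 0.37 ± 0.22 (0.209), and it was 0.03 without control replicate 1 and 0.83 without replicate 2. The difference between the responses was −0.60 without replicate 1 and 0.16 without replicate 2. CCND1 was higher in ρ0 than in parental control cells by 1.003 ± 0.22 on the log2 scale (0.00511), with 1.34 and 0.61 as the values without either ρ0 control library. That value lies just past the fold threshold, and it was 0.98 by upper quartile and with the replicate block, 0.91 by total counts, 0.99 with at least 10 counts in every library, 0.95 by limma-voom and 0.98 without parental control replicate 2. After starvation the excess was 0.74 ± 0.22 (edgeR adjusted p = 0.0179), or 0.74 to 0.78 with any 1 library left out. It did not pass when any 1 starved library was left out, where the shared spread still held that of the ρ0 control pair.

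CCND3, cyclin D3, moved in opposite directions. It was at 110 and 119 CPM in parental control and 186 and 193 in parental starved cells, a log2 fold change of 0.73 ± 0.15 (edgeR adjusted p = 0.00348). In ρ0 cells it was at 185 and 132 CPM in control and 100 and 100 in starved libraries, −0.66 ± 0.15 (0.0107). Each starved library thus lay above both controls in one line and below both in the other. The ρ0 fall was −0.39 and −0.87 without either control library, and without either starved library it did not pass (0.0792 and 0.0796). Between the control groups CCND3 was 0.47 ± 0.15 higher in ρ0 cells (0.0266), which did not pass when any 1 parental library was left out (0.0501 to 0.142) or under total count scaling (0.0555), and it was 0.20 and 0.75 without either ρ0 control library. Between the starved groups it was 0.92 on the log2 scale lower in ρ0 cells (−0.92 ± 0.15, 0.00107).

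Per kilobase of the longest annotated transcript, CCND1 was the main D cyclin and CCND2 the smallest part in each library. CCND1 made up 67.3% and 65.3% of the summed D cyclin level in parental control, 62.1% and 61.4% in parental starved, 70.3% and 85.2% in ρ0 control and 87.6% and 87.5% in ρ0 starved libraries. For CCND2 the shares were 8.38% and 8.37%, 13.0% and 13.2%, 0.0777% and 0.0545%, and 1.14% and 1.13%. CCND3 filled the rest, with 24.3% and 26.4% in parental control, 24.9% and 25.4% in parental starved, 29.6% and 14.7% in ρ0 control, and 11.2% and 11.4% in ρ0 starved libraries. The summed D cyclin level was 189 and 189 CPM per kb in parental control, 312 and 317 in parental starved, 262 and 373 in ρ0 control and 373 and 368 in ρ0 starved libraries. The sum was thus higher after starvation in parental cells, whereas ρ0 control replicate 2 was at the level of the ρ0 starved pair. Without length CCND2 counted for more, 13.5% in parental control and 20.6% in parental starved cells, and it then stood above CCND3 in the latter (14.7%).

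**Figure D3:**
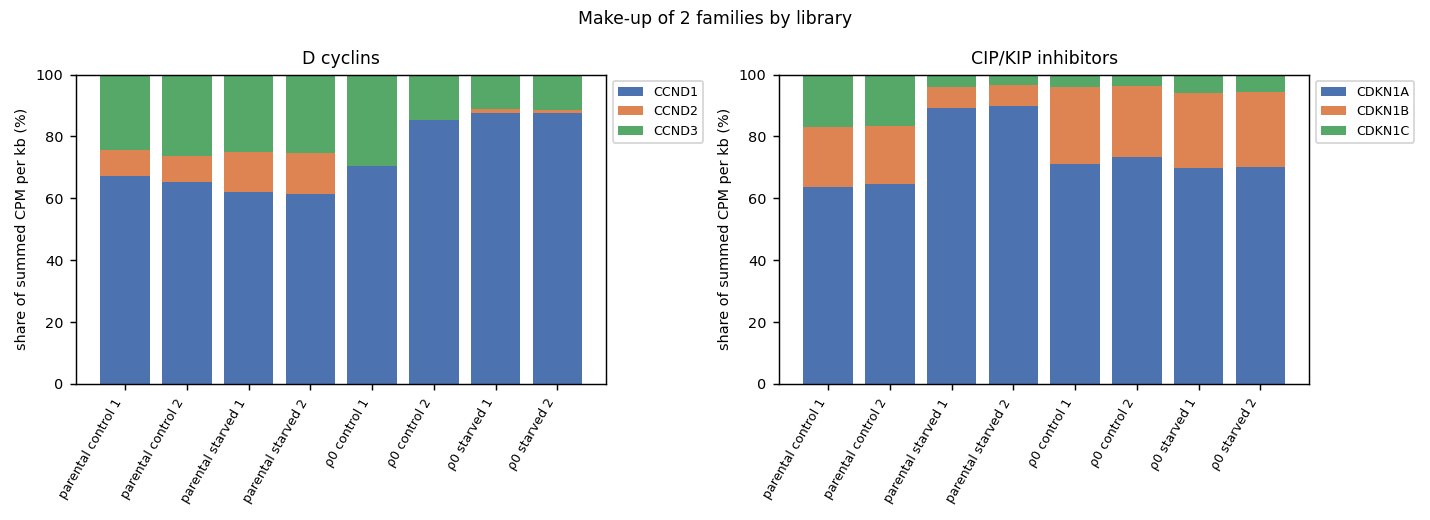
Share in percent of each D cyclin (left) and each CIP/KIP inhibitor (right) in the summed CPM per kb of its family, 1 bar per library. The orange CCND2 segment is 13.0% and 13.2% in parental starved libraries and at most 0.0777% in ρ0 control libraries, and the blue CDKN1A segment is 89.3% and 89.7% in parental starved libraries.

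The E cyclins, which activate CDK2 late in G1, did not respond alike. CCNE2 measured 11.03 and 10.2 CPM in parental control, 35.0 and 34.2 in parental starved, 25.4 and 62.8 in ρ0 control and 16.8 and 18.5 in ρ0 starved libraries. Both starved parental values were above the controls, both starved ρ0 values were below theirs, and the ρ0 control pair differed by more than for any of the other 9 genes. The log2 fold change was 1.70 ± 0.37 (edgeR adjusted p = 0.00442) in parental and −1.32 ± 0.36 (0.0220) in ρ0 cells. Without ρ0 control replicate 2 the ρ0 value was −0.51 and without replicate 1 it was −1.83, and it did not pass without either ρ0 starved library (0.125 and 0.0980). The difference between the responses, −3.02, had a 95% interval from −4.22 to −1.82 and was −3.53 and −2.25 without either ρ0 control library. ρ0 control cells had 2.05 ± 0.37 more CCNE2 on the log2 scale than parental control cells (0.00199), or 2.56 and 1.31 without either ρ0 control library. Starved ρ0 cells had less than starved parental cells (−0.97 ± 0.36, edgeR adjusted p = 0.0434), or −1.01 to −0.88 with any 1 library left out. The difference did not pass under upper quartile scaling (0.0576) or limma-voom (0.0671), nor when any 1 library outside the ρ0 control group was left out. Both starved pairs were close, and the shared spread holds that of the wide ρ0 control pair, which is not part of this comparison.

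CCNE1 measured 14.7 and 17.2 CPM in parental control, 23.7 and 23.2 in parental starved, 20.5 and 27.8 in ρ0 control and 20.5 and 21.7 in ρ0 starved libraries. The starved ρ0 pair lay within the spread of the ρ0 control pair. In parental cells CCNE1 rose by 0.56 ± 0.16 on the log2 scale (edgeR adjusted p = 0.0161), which did not pass without either starved library or without control replicate 1 (0.0623 to 0.109), nor under total count scaling (0.40, 0.0663). In ρ0 cells the log2 fold change was −0.19 ± 0.16 (0.366), and −0.40 and 0.057 without control replicate 1 and 2. The difference of −0.75 (0.0327) did not pass when any 1 library outside the ρ0 control group was left out (0.0606 to 0.121) or under upper quartile (0.0560) or total count scaling (0.0556), and was −0.96 and −0.54 without either ρ0 control library. Between the control groups it was 0.60 ± 0.16 higher in ρ0 cells (0.0125), not passing without parental control replicate 1 (0.0943), and 0.81 and 0.42 without either ρ0 control library. Between the starved groups the value was −0.15 ± 0.16 (0.427).

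Both kinases rose in both lines. CDK4 measured 232 and 251 CPM in parental control, 599 and 593 in parental starved, 141 and 192 in ρ0 control and 253 and 248 in ρ0 starved libraries, so starved parental cells held more than any other group. Its log2 fold change was 1.30 ± 0.14 (edgeR adjusted p = 0.000135) in parental and 0.59 ± 0.14 (0.0120) in ρ0 cells. The latter was 0.39 and 0.84 without either ρ0 control library and did not pass without either ρ0 starved library (0.0649 and 0.0567). The difference of −0.71 (0.0230) did not pass when any 1 library outside the ρ0 control group was left out (0.0652 to 0.0921), and was −0.91 and −0.50 without either ρ0 control library. CDK4 was lower in ρ0 than in parental control cells (−0.54 ± 0.14, 0.0105), which did not pass without parental control replicate 2 (0.0677) and was −0.33 and −0.72 without either ρ0 control library, and lower after starvation (−1.25 ± 0.14, 0.000151). TSPAN31, a tetraspanin gene whose annotation overlaps CDK4 and whose reads cannot be told from it without strand, was at 23.7 and 25.6 CPM in parental control and 18.9 and 21.2 in parental starved cells, with a log2 fold change of −0.30 ± 0.13 (0.0774). In ρ0 cells TSPAN31 was at 14.0 and 11.6 CPM in control and 18.1 and 19.4 in starved libraries and rose by 0.55 ± 0.13 (0.0138), and in control medium it was lower than in parental cells (−0.94 ± 0.13, 0.000561), both in the direction of CDK4. The part of overlapping reads in the CDK4 values was not tested.

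CDK6 measured 193 and 170 CPM in parental control, 368 and 361 in parental starved, 114 and 111 in ρ0 control and 186 and 184 in ρ0 starved libraries. The groups did not overlap, apart from parental control and ρ0 starved libraries. It rose by 1.01 ± 0.08 on the log2 scale in parental cells (edgeR adjusted p = 4.8e-05) and by 0.72 ± 0.08 in ρ0 cells (0.000738; 0.73 and 0.71 without either ρ0 control library), and the 95% interval of the difference ran from −0.57 to −0.02. ρ0 cells had less CDK6 in control medium (−0.69 ± 0.08, 0.000291, or −0.71 and −0.62 without either ρ0 control library) and after starvation (−0.98 ± 0.08, 4.4e-05). The parental value lies just past the fold threshold of 1, and it was 0.91 without parental control replicate 2, 0.99 without parental starved replicate 1, 0.97 with at least 10 counts required in every library, 0.89 under upper quartile and 0.85 under total count scaling, with each still under the adjusted p threshold. With CDK4, the summed level per kilobase was 128 and 135 CPM per kb in parental control and 320 and 317 in parental starved cells, against 77.7 and 102 in ρ0 control and 138 and 135 in ρ0 starved cells.

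Promoter sequences from RefSeq (GRCh38.p14, from 250 bases before to 50 bases after each annotated start) were matched for 6 of the 10 genes, CCND3, CCNE1, CDK4, CDK6, CDKN1A and CDKN1B, with 9 windows in all. CDK4 is shown because it rose in both lines and its window held 3 copies of the E-box CACGTG, the palindrome bound by MYC with MAX, starting 216, 196 and 101 bases before the start. The stretch lies at chr12:57752396-57752536 on the minus strand, is printed 5′ to 3′ and has the 3 E-boxes in capitals.
CDK4: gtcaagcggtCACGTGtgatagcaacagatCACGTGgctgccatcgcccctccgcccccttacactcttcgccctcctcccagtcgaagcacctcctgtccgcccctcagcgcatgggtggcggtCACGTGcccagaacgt
Both strands were searched, and 7.26% of 35116 promoter windows hold the E-box. A CDK6 window held 1 copy, starting 30 bases after the start. The GC box GGGGCGGGG was in windows of CCND3 and CCNE1 and in 15.7% of all windows. None of the 9 windows held the letters TTTNNCGC (E2F, 6.89% of all windows), TGATGNAA (ATF4, 3.62%), TGACGTCA (CRE, 1.85%), TGACTCA (AP-1, 4.95%) or TATAAA (11.5%). Such a match describes letters in a window and was not tested against the expression values.

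Of the CIP/KIP inhibitors, CDKN1A (p21) had the strongest parental response. It measured 102 and 108 CPM in parental control, 418 and 425 in parental starved, 140 and 121 in ρ0 control and 181 and 180 in ρ0 starved libraries. The starved parental pair stood far above all the others. The log2 fold change was 2.004 ± 0.09 (edgeR adjusted p = 8.2e-06) in parental and 0.47 ± 0.09 (0.00543) in ρ0 cells, where it was 0.58 and 0.38 without either control library. The difference was −1.53 (95% interval −1.83 to −1.23, 0.000335). In control medium CDKN1A was 0.31 ± 0.09 higher in ρ0 cells (0.0193), which did not pass without either parental control library (0.119 and 0.0541), nor under total count scaling (0.0688), and was 0.20 and 0.46 without either ρ0 control library, and after starvation it was 2.34-fold lower (−1.23 ± 0.09, 2.2e-05). A share of 63.8% and 64.8% of the summed CIP/KIP level per kilobase in parental control libraries became 89.3% and 89.7% in parental starved ones, while it was 71.2% and 73.5% in ρ0 control and 69.9% and 70.0% in ρ0 starved libraries.

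CDKN1B (p27) behaved differently from CDKN1A. Its parental levels, 35.9 and 36.4 CPM in control and 37.1 and 37.9 in starved libraries, gave a log2 fold change of 0.05 ± 0.12 (95% interval −0.24 to 0.34, edgeR adjusted p = 0.722) whose sign turned under upper quartile (−0.065) and total count scaling (−0.11). In ρ0 cells it was at 57.0 and 43.9 CPM in control and 73.4 and 73.5 in starved libraries and rose by 0.54 ± 0.12 (0.0107). That rise was 0.74 and 0.38 without either control library and did not pass without either starved one (0.0660 and 0.0644). The difference between the responses, 0.49 (0.0589), passed under upper quartile (0.0310) and total count scaling (0.0297). Levels in ρ0 cells were higher by 0.48 ± 0.12 in control medium (0.0108), not passing without either parental control library (0.0646 and 0.0566) and at 0.28 and 0.71 without either ρ0 control library, and by 0.97 ± 0.12 after starvation (0.000316).

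CDKN1C (p57), an imprinted gene, took the opposite course to CDKN1A in parental cells. It measured 23.2 and 23.8 CPM in parental control, 15.7 and 14.1 in parental starved, 6.73 and 5.24 in ρ0 control and 13.1 and 12.1 in ρ0 starved libraries. Starvation thus brought the lines close to each other from levels 3.93-fold apart. It fell by 0.66 on the log2 scale in parental cells (−0.66 ± 0.14, edgeR adjusted p = 0.00424) and rose by 1.07 ± 0.15 in ρ0 cells (0.00140), where the value was 1.27 and 0.92 without either control library. The difference was 1.73 (95% interval 1.25 to 2.21, 0.00108). ρ0 cells had less in control medium (−1.97 ± 0.15, 2.8e-05, or −2.16 and −1.75 without either ρ0 control library), and after starvation the value was −0.24 ± 0.14 (0.166), which passed without ρ0 control replicate 1 (0.0235) or 2 (0.0396) and with the starved libraries alone (0.0308).

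Compared per kilobase of the longest transcript, the order of the 10 genes changed at the top between groups. In parental control cells CCND1 (125 ± 2.86 CPM per kb, SD, n = 2) stood above CDK4 (116 ± 6.25), then CCND3 (47.9 ± 2.65) and CDKN1A (46.4 ± 2.02), whose ranges overlapped. In parental starved cells CDK4 (287 ± 2.20) led, followed by CCND1 (194 ± 0.36) and CDKN1A (186 ± 2.03). This change of first place between the parental groups depended on the length used. By mean transcript length CDK4 (264 and 285 CPM per kb) stood above CCND1 (226 and 218) in parental control libraries already. Without length CCND1 stood above CDK4 in parental control (539 and 241 CPM) and parental starved cells (836 and 596 CPM). ρ0 control cells had CCND1 (251 ± 94.7) at the top, above CDK4 (80.1 ± 17.3), CCND3 (66.2 ± 15.8) and CDKN1A (57.4 ± 5.91), of which each neighbouring pair after CCND1 overlapped. ρ0 starved cells had CCND1 (324 ± 2.95), CDK4 (121 ± 1.61) and CDKN1A (79.5 ± 0.47) as the first 3. At the bottom were CCNE2 in parental control (3.19 ± 0.17), CDKN1C in parental starved (7.70 ± 0.59) and CCND2 in both ρ0 groups (0.203 and 4.20 ± 0.05).

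Of the 4 INK4 inhibitors, which oppose CDK4 and CDK6, 2 were tested, and neither rose. CDKN2A, the gene of p16 that MDA-MB-231 is known to have lost by deletion, was at most 3 counts in each library, and CDKN2B at most 1 count, so neither was tested. CDKN2C (p18) was at 23.5 and 25.1 CPM in parental control and 3.68 and 3.26 in parental starved cells, and at 36.0 and 24.7 in ρ0 control and 3.51 and 3.98 in ρ0 starved cells. It fell in both lines, with log2 fold changes of −2.81 ± 0.21 (edgeR adjusted p = 2.8e-05) and −3.02 ± 0.21 (0.000135), and the difference of −0.21 did not pass (0.583), but passed without ρ0 control replicate 2 (−0.49, 0.0193). CDKN2D (p19) fell by 0.32 in parental cells (0.04998, just under the threshold), and its ρ0 value of −0.34 did not pass (0.0564), but passed without ρ0 control replicate 1 (0.0349) or 2 (0.000647).

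Around these members, the lists of pathway genes were counted past the fold threshold, where 12.7% of all tested genes rose and 22.1% fell in parental cells and 4.22% and 8.19% in ρ0 cells. Values of single list genes are from both ρ0 control libraries unless stated. Of 13 genes of the RB family, E2F and DP factors, 5 were past it upward and 1 downward in parental cells, and 1 and 4 in ρ0 cells, with 7 higher and 2 lower and 3 higher and 5 lower by adjusted p alone. In parental cells the largest rise was that of E2F3, an activator (1.31 ± 0.08, edgeR adjusted p = 1.3e-05), and RBL2, the gene of the RB relative p130, fell by 3.25 (5.4e-05) where its ρ0 value was −0.17 ± 0.25 (0.627), or 0.35 and −0.54 without ρ0 control replicate 1 and 2, each passing. In ρ0 cells E2F5, a repressor, rose most (1.60 ± 0.14, 0.000236) and E2F2, an activator, fell most (−2.54 ± 0.43, 0.00316, or −3.05 and −1.69 without either ρ0 control library).

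Of 8 partners and activating enzymes of the G1 kinases, 2 were past the threshold upward in parental cells and 0 downward, and in ρ0 cells 0 were, with 3 higher and 2 lower and 2 higher and 3 lower by adjusted p alone. CDC25A, the phosphatase that activates CDK2, rose by 1.99 ± 0.31 in parental cells (edgeR adjusted p = 0.000938). Of 10 parts of the ubiquitin ligases that degrade G1 cyclins and inhibitors, 1 was past the threshold upward and 1 downward in parental cells and 2 downward in ρ0 cells, or 1 without control replicate 2. By adjusted p alone, 5 were higher and 1 lower in parental and 3 and 3 in ρ0 cells. SKP2, the ligase subunit that targets p27, fell by 2.39 (1.9e-05) and by 1.40 (0.000550), and CUL4A, a ligase scaffold, rose by 1.24 ± 0.09 in parental cells (2.4e-05).

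Most genes of the later phases fell in both lines. Of 7 other cyclins and kinases, 6 were past the threshold downward in parental and 5 in ρ0 cells (7 and 5 by adjusted p alone). Without ρ0 control replicate 1, 3 were past it downward and CCNG2, a gene of cyclin G2, upward (2.50), whose ρ0 levels were 29.5 and 5.14 CPM in control and 30.2 and 28.0 in starved libraries. CCNB1, the mitotic cyclin B1, had the largest parental fall (−3.04 ± 0.35, edgeR adjusted p = 0.000197) and CCNF, cyclin F, the largest in ρ0 cells (−1.89 ± 0.10, 5.9e-05). CCNB1 fell in ρ0 cells too (−1.34 ± 0.32, 0.0143), by 0.61 and 1.81 without ρ0 control replicate 1 and 2. Of 10 mitosis and proliferation markers, 9 were past the threshold downward in each line, PLK1 most (−2.89 ± 0.25, 5.1e-05 in parental and −2.24 ± 0.24, 0.000530 in ρ0 cells), and 6 of 10 were past the threshold in ρ0 cells without control replicate 1. Their summed level was 2193 and 2132 CPM in parental control, 603 and 607 in parental starved, 2461 and 1912 in ρ0 control and 689 and 710 in ρ0 starved libraries. The 8 G1 genes that rose in parental cells thus did so in libraries in which these markers were lower, and the part of the one in the other was not tested.

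Of 16 E2F target genes of S phase entry, 4 were past the threshold downward in parental and 15 in ρ0 cells, or 9 in ρ0 cells without control replicate 2. By adjusted p alone 6 and 16 were lower. The difference between the responses was negative with an adjusted p under 0.05 for 13 of them, against 18.8% of all tested genes. Its median over the 16 genes was −1.07, or −1.42 and −0.72 without ρ0 control replicate 1 and 2. Their summed level was 2154 and 2177 CPM in parental control, 1759 and 1741 in parental starved, 2436 and 3859 in ρ0 control and 1188 and 1186 in ρ0 starved libraries. The ρ0 control library with the higher sum was also the one with the higher CCNE2, CCND1, CCNE1 and CDK4. It had the lower CCND3, CDKN1B, CDKN1C and CDKN1A, while CDK6 (log2 difference −0.035) and CCND2 (0.00025) differed little. The part of that library in those values was not tested. CDC45, a subunit of the replicative helicase, fell most of them in ρ0 cells (−2.66 ± 0.23, edgeR adjusted p = 0.000246).

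CDKN1A is a target of p53, which is mutant in MDA-MB-231. Of 16 other p53 target genes, 3 were past the threshold upward and 4 downward in parental cells, and 2 and 2 in ρ0 cells. By adjusted p alone, 7 were higher and 4 lower in parental cells, and 8 and 2 in ρ0 cells, against 30.4% and 35.5% and 19.2% and 22.1% of all tested genes. GADD45A, a stress-response gene, rose most (3.43 ± 0.20, edgeR adjusted p = 1.3e-05 in parental and 2.19 ± 0.19, 0.000236 in ρ0 cells), and FDXR, a mitochondrial reductase, fell most (−3.08 ± 0.17, 1.2e-05 and −1.70 ± 0.17, 0.000431). Of 15 regulators of D cyclin and CIP/KIP transcription, 8 were past the threshold upward and 3 downward in parental cells and 4 and 2 in ρ0 cells, with 9 and 3 and 7 and 2 by adjusted p alone. EGR1, an immediate early factor, was at 11.3 and 11.9 CPM in parental control and 155 and 161 in parental starved cells and rose by 3.77 ± 0.54 (0.000589), while its ρ0 values were 6.42 and 26.2 in control and 12.3 and 11.7 CPM in starved cells (−0.45 ± 0.51, 0.524), or −1.12 and 0.92 on the log2 scale without ρ0 control replicate 1 and 2. MYC rose in both lines, by 2.41 ± 0.15 (1.7e-05) and 1.997 ± 0.15 (0.000182), and was at 588 and 590 CPM in parental control against 132 and 186 CPM in ρ0 control cells. FOXM1, a factor of the G2 and M phases, fell in both (−1.83 ± 0.14, 3.7e-05 and −1.47 ± 0.14, 0.000346).

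**Figure D4:**
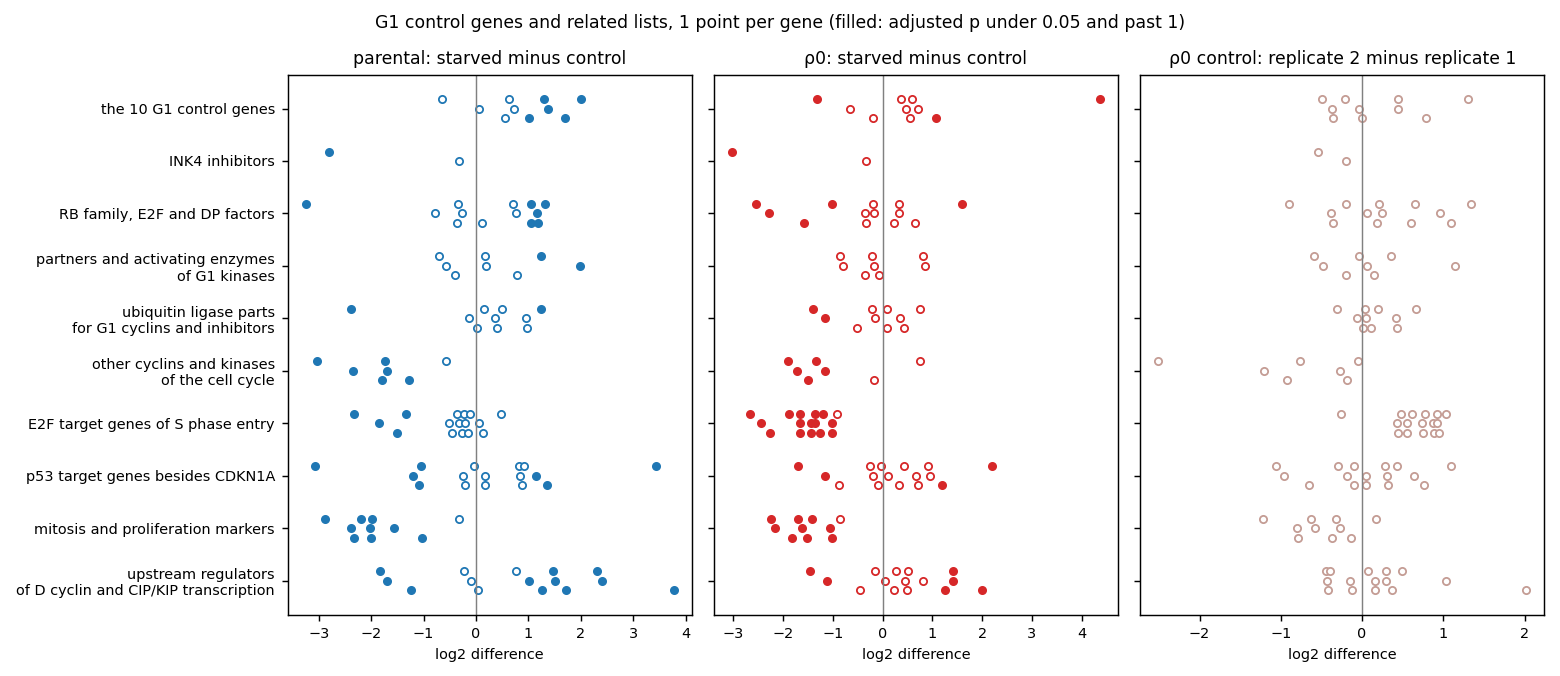
Log2 differences of the 10 G1 control genes and the genes of each list, 1 point per gene, for starvation in parental cells (left), starvation in ρ0 cells (middle) and ρ0 control replicate 2 minus replicate 1 (right), filled where past the fold threshold with an adjusted p under 0.05. The E2F targets have 4 filled points on the left and 15 in the middle, all below 0, and 15 of their 16 points on the right lie above 0.

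The genes with the most similar profiles were found among 9941 tested genes with a mean of at least 10 CPM over the 8 libraries, which can be lower in single libraries, by the root mean square difference of log2 CPM over the 8 libraries, each centred on its own mean. CCND1 was most like PITPNA (0.04) and TMEM199 (0.10), where its own standard deviation was 0.54. For CCND2, with a standard deviation of 2.86, PELI2 (0.75) and MEX3A (0.84) came nearest. The distances are not scaled to a gene's own spread. PELI2 was at 37.8 and 33.4 CPM in parental control, 49.5 and 51.3 in parental starved, 0.312 and 0.322 in ρ0 control and 2.57 and 2.15 in ρ0 starved libraries, so it shared the low ρ0 control level of CCND2. Next to CCND3 were EPHB2 (0.11) and OSBP2 (0.13), next to CDKN1A were ZNF550 and AMD1 (0.10 each), next to CDKN1B were TMEM50A (0.05) and DNAJC10 (0.07), and next to CDKN1C were SOX12 (0.13) and LRRC49 (0.19). The 8 points share library, line and treatment, and no test was made of the likeness.

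The count of CCNE2 has a limit of its own, since its annotation overlaps INTS8 and NDUFAF6 and the counting is not stated to use strand. INTS8, a subunit of the Integrator complex, fell in both lines (−1.11 ± 0.10, edgeR adjusted p = 7.8e-05 in parental and −0.66 ± 0.10, 0.00239 in ρ0 cells), so that it went against CCNE2 in parental cells and with it in ρ0 cells. NDUFAF6, an assembly factor of complex I, was between 10.97 and 16.1 CPM in all 8 libraries and passed in neither line, though its ρ0 value did without control replicate 1 (−0.49, 0.00131). The part of overlapping reads in the CCNE2 values was not tested.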

How the data were processed

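The authors deposited 1 table of raw counts, with a row for each gene symbol, which was used as deposited. The submitters' processing notes name Bowtie, Partek and hg19. Versions, annotation and strand setting are not given in the sources used here, and the study's text speaks of FPKM, which were not used. In R 4.3.3, edgeR 4.0.16 filtered genes by filterByExpr over the 4 groups (15262 of 23393 kept), scaled libraries by TMM and fitted 1 mean per group to all 8 libraries by quasi-likelihood (4 residual degrees of freedom, common biological coefficient of variation 12.4%). P-values were adjusted by Benjamini-Hochberg over all tested genes in each of 5 contrasts. Standard errors were obtained from the log2 fold change and the F statistic. Samples were grouped by their titles. Levels per kilobase used the longest GENCODE transcript (matched by symbol) and overlapping genes came from RefSeq. All 10 members are named. From each list the largest rise and fall past both thresholds in each starvation contrast, the INK4 genes and the 2 nearest profiles are named, and others (TSPAN31, INTS8, NDUFAF6, CCNG2, CDH1, EPCAM, GATA3, ERBB3, FOXA1) were chosen after their values were seen. One gene that this rule names is not reported here. Members and lists were chosen with earlier results of these data known. Alternatives were other scalings, filters, tests (DESeq2 1.42.0, limma-voom with limma 3.58.1), a replicate block, fewer libraries and other lengths. The scripts were tested on simulated data. Depth limits low counts most. Intervals rest on a spread between libraries that is shared by the 4 groups. They can thus be too narrow where ρ0 control cells enter and too wide elsewhere.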

Additional observations from a re-analysis of the deposited data

Results flagged for a closer look

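For 7 of the 10 genes the response to starvation differed between the lines by edgeR's test of the difference itself (adjusted p under 0.05), ρ0 minus parental on the log2 scale, as it did for 6167 of 15262 tested genes (21.6% higher and 18.8% lower). CCND2 responded more in ρ0 cells by 2.98. CDKN1C responded in opposite directions, with a difference of 1.73. CCNE2 (−3.02) and CCND3 (−1.38) also responded in opposite directions, though their ρ0 falls did not pass with the ρ0 libraries alone. CDKN1A (−1.53) and CDK4 (−0.71) rose in both lines and by less in ρ0 cells, though the ρ0 rise of CDK4 did not pass with the ρ0 libraries alone. CCNE1 (−0.75) rose in parental cells and did not pass in ρ0 cells. CCNE1 and CDK4 no longer passed when any 1 library outside the ρ0 control group was left out, which left 5 genes. The spread of the ρ0 control pair enters each of these differences, and no cause was tested.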

How the results depend on the processing

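The number of genes past both thresholds was 5 in parental starvation, 3 in ρ0 starvation, 4 between controls and 3 between starved groups. Without the fold threshold it was 9, 8, 10 and 8. Leaving out 1 library gave 4 to 5, 1 to 3, 3 to 4 and 3, and 5 to 10 in place of 7 for the difference between the responses. The value 1 came without ρ0 control replicate 2. Over the whole table the difference passed for 3513 to 3951 genes without a library outside the ρ0 control group, against 6167. Signs turned for CDKN1B in parental starvation (−0.065 by upper quartile, −0.11 by total counts), for CCNE1 in ρ0 starvation (−0.40 to 0.057 over libraries left out) and for CCND1 in the difference (−0.60 to 0.16). The cause was not tested. Deviations of same-numbered libraries correlated between −0.05 and 0.04, so no shared effect of the replicate number was seen. Whether same-numbered libraries were prepared together cannot be told from these values. With the replicate number as a block the counts were 5, 3, 7, 3 and 3 for the 5 contrasts.

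Counts of list genes moved with the ρ0 control libraries. In the difference, larger list counts cannot be read as particular to a list. More genes of the whole table also passed there with either ρ0 control library left out. Counts over omission of either were 9 to 15 for E2F targets (15 with both), 0 to 2 for kinase partners (0) and 1 to 2 for ligase parts (2) in ρ0 starvation, and 0 to 1 for INK4 genes (0), 6 to 7 for kinase partners (2) and 5 to 6 for mitosis markers (1) in the difference. D cyclin shares without length were 71.3% (CCND1), 13.5% (CCND2) and 15.2% (CCND3) in parental control, 64.7%, 20.6% and 14.7% in parental starved, and 91.6%, 1.78% and 6.58% in ρ0 starved cells, with 0.111% for CCND2 in ρ0 control. By mean transcript length they were 8.84% for CCND2 in parental control, 62.4%, 13.8% and 23.8% in parental starved and 88.1%, 1.19% and 10.7% in ρ0 starved cells.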
